A study of Mus musculus with 8 samples.

Results

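The response of wild-type (WT) DN3 thymocytes to a gamma-secretase inhibitor (GSI) was taken from 4 of the 8 arrays of the series, the 2 labelled as WT DN3 cells treated with GSI and the 2 labelled as WT DN3 cells treated with DMSO, over all 18193 genes measured. The inhibitor was MRK-003, given for 16 h at a dose labelled as 5 mM, and DMSO was its vehicle. The other 4 arrays carried the same 2 treatments in IkL/L cells, which are deficient in the zinc finger transcription factor Ikaros. Mouse thymocytes depleted of lineage-positive cells were cultured on OP9 DL1, a stromal line that displays the Notch ligand Delta-like 1. After culture the DN3 fraction was sorted by the absence of lineage markers and CD44 and the presence of CD25, so every group, controls included, had grown on the stromal layer and with a Notch ligand. Sorting came after the treatment, and CD25 is encoded by Il2ra, itself a Notch target. RNA levels were read on Affymetrix mouse arrays as log2 values, in which a difference of 1 is a 2-fold change. The labels do not tie the replicates to different mice or wells, and the p-values measure only how far these arrays spread, part or all of which may be technical.

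Notch receptors are activated when a ligand on a neighbouring cell exposes them to cleavage, first by an ADAM protease and then by gamma-secretase, a membrane protease built of presenilin, nicastrin, APH1 and PEN2. The freed intracellular domain enters the nucleus, binds RBPJ and MAML proteins and switches on target genes. DN3 cells rearrange the T cell receptor beta gene, carry the pre-T cell receptor and rely on Notch1 signals for growth, glucose use and passage through beta-selection. MYC, itself a Notch1 target in these cells, drives genes of ribosome production, nucleotide synthesis and the entry into S phase.

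The WT arrays numbered 1 stood apart from those numbered 2. In WT DMSO 390 genes lay over 2-fold apart between the replicates, and in WT GSI 830 did, 604 of them higher in replicate 1. In comparison, 153 and 146 genes were that far apart in IkL/L DMSO and IkL/L GSI. Markers of stromal cells (25 genes such as Mgp and Acta2) were higher in replicate 1 by a median log2 difference of 1.02 in WT DMSO and 2.12 in WT GSI. Interferon-stimulated genes were higher by 1.69 and 1.5, and immediate early genes by 0.44 and 1.67. In IkL/L DMSO and IkL/L GSI the stromal markers were also higher in replicate 1, by 1.10 and 0.63, and the interferon-stimulated genes by 0.96 and 0.85, while the immediate early genes were at 0.07 and -0.06. The labels name 3 experiment codes with different amounts of starting RNA and do not tie them to arrays, so experiment was not tested as a batch. Fos, an immediate early transcription factor gene, was at a log2 level of 10.89 and 6.76 on the WT DMSO arrays and at 12.72 and 6.27 on the WT GSI arrays. GAPDH control probe sets at the 3' and 5' ends of the transcript differed by a log2 value that grows as RNA gets shorter, and this was 1.71 and 2.12 in WT DMSO and 2.20 and 3.08 in WT GSI. It was thus larger on each GSI array than on each DMSO array, and its part in the results was not tested beyond a fit that holds it as a covariate.

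The cells carried the marker genes of DN3 thymocytes under both treatments. Of the 9 markers measured, Bcl11b, a transcription factor gene of T lineage commitment, was at a log2 level of 12.77 and 13.09 in WT DMSO and 13.11 and 13.46 in WT GSI. Rag1, which encodes part of the recombinase that cuts T cell receptor genes, was at 12.48 and 12.92 and at 12.34 and 12.60. Notch1 was at 13.08 and 13.37 and at 12.99 and 13.27. None of these 3 genes passed the test, and Thy1, Cd3e, Cd3g and Rag2 did not either. The remaining markers, Il2ra and Ptcra, fell with GSI and are described below with the Notch targets. In sorted bulk samples, fewer cells of a type and less RNA per cell cannot be told apart.

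More genes were lower than higher after GSI in WT DN3 cells. Of 18193 genes, 1177 (6.47%) changed at a Benjamini-Hochberg adjusted p below 0.05 in limma, 421 (2.31%) higher and 756 (4.16%) lower. This balance turned to 1380 higher and 896 lower when the GAPDH difference was held as a covariate. At least a 2-fold change was also seen for 674 (3.7%), of which 184 (1.01%) were higher and 490 (2.69%) lower. The median log2 change over all genes was 0.035. The WT GSI and WT DMSO arrays did not overlap for 7998 genes (44.0%), with the GSI arrays above for 4400 (24.2%) and below for 3598 (19.8%). Calls were denser among brighter genes, from 0.352% of the 4549 genes with the lowest mean level to 14.8% of the 4548 with the highest. Most calls were lost when WT DMSO replicate 1 was left out. That fit held 1 WT DMSO array, so a lost call does not show that the change was absent. Over the 8 fits with an array left out, the log2 change of Ypel3 ran from 1.45 to 1.49. That of Cdkn1a ran from 1.59 to 1.68, and that of Tpi1 more widely, from -2.22 to -1.24. The count of called genes also fell when most other arrays were dropped. Without WT DMSO replicate 2 there were 186, without WT GSI replicate 2 678, without the IkL/L DMSO arrays 395 and 421, and without the IkL/L GSI arrays 764 and 761.

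**Figure D1:**
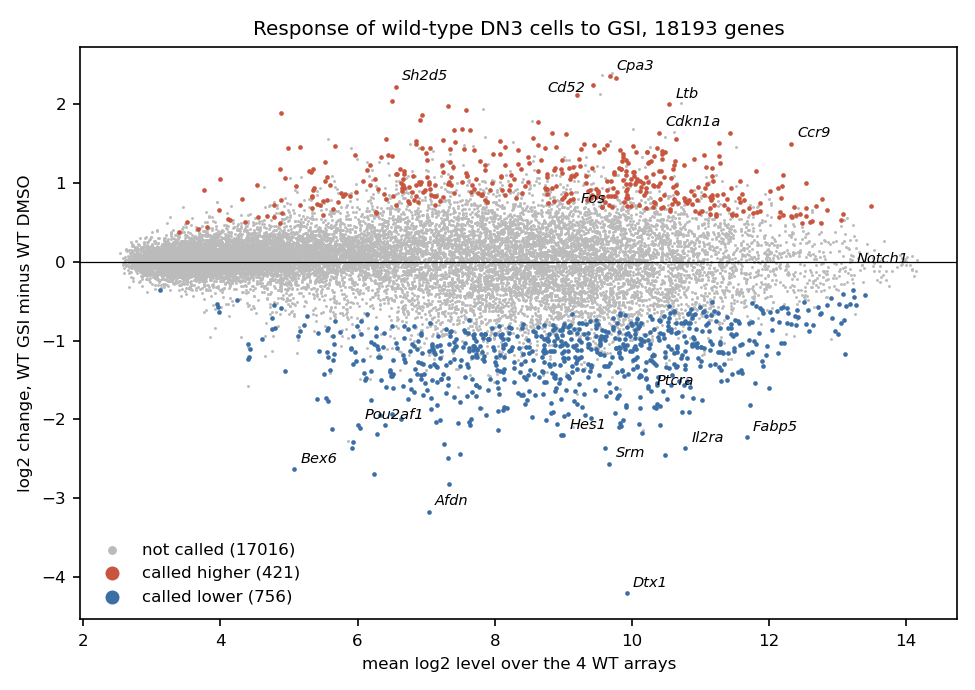
Log2 change with GSI in WT DN3 cells (vertical axis) against the mean log2 level over the 4 WT arrays (horizontal axis), 1 point per gene. Red points are the 421 genes called higher, blue points the 756 called lower, and Dtx1 lies alone at -4.20 while Notch1 and Fos are not called.

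A small group of 9 genes (0.0495% of those tested) passed in the fit with all arrays and again in all 8 fits that left out an array. Dtx1, whose product Deltex-1 is a ubiquitin ligase that binds Notch, was at a log2 level of 12.09 and 11.96 on the WT DMSO arrays and 7.68 and 7.96 on the WT GSI arrays. The groups lay far apart, and the log2 change was -4.20 ± 0.20 (SE; limma, adjusted p = 0.000356), an 18.4-fold decrease. Afdn, encoding the junction scaffold afadin, was at 8.80 and 8.45 under DMSO and at 5.60 and 5.31 under GSI. It fell by 3.17 ± 0.23 (limma, adjusted p = 0.00257). Il2ra, encoding CD25, the interleukin-2 receptor alpha chain, was at 12.03 and 11.90 under DMSO and at 9.73 and 9.47 under GSI, and it fell by 2.37 ± 0.15 (adjusted p = 0.00141). The cells had been gated on this protein, and its transcript was still lower on both treated arrays. Fabp5, encoding a fatty acid binding protein, was at 12.82 and 12.75 and fell to 10.42 and 10.70 (-2.22 ± 0.13, adjusted p = 0.00102). Pou2af1, encoding the lymphoid coactivator OCA-B, was at 7.11 and 6.97 and fell to 4.95 and 4.99 (-2.07 ± 0.17, adjusted p = 0.00317). Agfg1, which encodes a protein with FG repeats of the kind found in nuclear pores, fell from 11.38 and 11.10 to 9.11 and 9.03 (-2.17 ± 0.16). Nln, encoding the peptidase neurolysin, fell from 8.84 and 8.59 to 6.41 and 6.15 (-2.44 ± 0.20). Bex6 fell from 6.32 and 6.46 to 3.58 and 3.95 (-2.63 ± 0.21), close to the lower end of the scale. Cd52, encoding a small surface glycoprotein of lymphocytes, was the member of this group that rose. It was at 8.39 and 8.24 under DMSO and at 10.56 and 10.55 under GSI, a log2 change of 2.24 ± 0.18 (adjusted p = 0.00317).

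Other large decreases were seen in genes of varied function. H2-Q2, a class I histocompatibility gene with close relatives that could share its probes, was at 8.71 and 8.77 under DMSO and 5.73 and 6.12 under GSI, and fell by 2.82 ± 0.34 (limma, adjusted p = 0.00901). Dctd, encoding the deaminase that makes dUMP from dCMP, fell from 7.83 and 7.35 to 5.29 and 4.50. Srm, encoding spermidine synthase, fell from 11.29 and 10.61 to 8.68 and 8.10 (-2.56 ± 0.32, adjusted p = 0.0093). The decreases named here were chosen among called genes without overlap between treated and untreated arrays, so that gap was fixed in advance. Hk2, encoding hexokinase 2, which commits glucose to glycolysis, fell from 8.86 and 7.96 to 6.29 and 5.91 (-2.31 ± 0.30). Gfra1, encoding a receptor for glial-derived growth factor, fell from 11.01 and 10.59 to 8.61 and 8.25 (-2.36 ± 0.21). Mtm1, encoding the phosphoinositide phosphatase myotubularin, fell from 11.48 and 11.94 to 8.81 and 9.70 (-2.45 ± 0.38). Scd1, encoding stearoyl-CoA desaturase, fell from 6.99 and 7.18 to 5.16 and 4.43 (-2.29 ± 0.30). Lsm2, encoding a protein of the ring that binds U6 RNA, fell by 2.36 ± 0.32, and the neurofilament gene Nefh by 2.49 ± 0.23. The calls of all these genes were lost without WT DMSO replicate 1, and those of Mtm1, Lsm2 and Scd1 also without WT DMSO replicate 2.

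The largest increases were smaller than the largest decreases. Cpa3, encoding carboxypeptidase A3, known from mast cells and early progenitors, was at a log2 level of 8.89 and 8.10 under DMSO and 11.40 and 10.31 under GSI. It rose by 2.36 ± 0.37 (limma, adjusted p = 0.0145). The other 10 mast cell and basophil markers measured, among them Fcer1a, Ms4a2 and Mcpt4, did not pass, with changes between -0.09 and 0.20. Ltb, encoding lymphotoxin beta, rose from 9.73 and 9.36 to 11.78 and 11.31 (2.00 ± 0.31). Sh2d5 rose from 5.29 and 5.60 to 7.69 and 7.64 (2.22 ± 0.25), and Card6, encoding a caspase recruitment domain protein, from 8.19 and 8.10 to 10.24 and 10.29 (2.12 ± 0.28). Tox3, encoding an HMG-box protein, rose from 7.48 and 8.01 to 9.32 and 9.70 (1.77 ± 0.23). The increases named here, too, were chosen among called genes without overlap between treated and untreated arrays. The largest 15 increases also held Cd52, described above, and Sbspon, Zfp467, Parvb, Dynlrb2, Tdrd5, Fndc1, Saa3, Cldn4 and Ap3m2, with log2 changes from 1.67 to 2.04. Apart from Cd52, the genes named here as increases lost their call without WT DMSO replicate 1. Cpa3, Ltb, Card6, Sbspon, Zfp467, Parvb, Ap3m2, Fndc1 and Saa3 also lost it without WT DMSO replicate 2, and Fndc1 and Saa3 passed in 2 of the 8 fits with an array left out.

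Of 29 Notch pathway genes, of ligands, receptors, proteases and nuclear partners, 1 rose and none fell (median log2 change 0.22), against 2.31% and 4.16% of all genes tested. Both GSI arrays lay above both DMSO arrays for 13 of the 29 and below them for none, against 24.2% and 19.8% of all genes. The subunit genes of gamma-secretase, the drug's target, did not pass, with changes of 0.39 for Psen2 and Ncstn, 0.47 for Aph1a and 0.34 for Psenen. The receptor genes Notch1 (-0.09 ± 0.13, adjusted p = 0.763) and Notch3 (-0.15 ± 0.30) did not pass, and both changed sign when WT DMSO replicate 2 or WT GSI replicate 1 was left out. The member that rose was Lfng, encoding the glycosyltransferase Lunatic fringe, which tunes how Notch receives its ligands. Lfng was at a log2 level of 4.67 and 5.12 under DMSO and 6.02 and 6.29 under GSI, and rose by 1.26 ± 0.18 (limma, adjusted p = 0.0125). Its relative Mfng was at -0.65 ± 0.35 and did not pass.

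Of 23 Notch targets 6 fell and 1 rose, with a median log2 change of -0.15, against 4.16% and 2.31% of all genes tested. The counts of calls in the lists that follow are to be read against these same shares. Besides Dtx1 and Il2ra, Ptcra, the gene of the pre-T cell receptor's alpha chain, fell from 11.20 and 10.99 under DMSO to 9.46 and 9.44 under GSI. Its change was -1.64 ± 0.15 (limma, adjusted p = 0.0049). Hes1, encoding a repressor of the basic helix-loop-helix family, was at 10.22 and 9.97 under DMSO and at 8.49 and 7.31 under GSI. The groups did not overlap, but the treated replicates differed by over 1 log2 unit, and Hes1 fell by 2.20 ± 0.48 (adjusted p = 0.0363). Trib2, encoding a pseudokinase, fell from 9.07 and 8.91 to 7.44 and 6.76 (-1.89 ± 0.35, adjusted p = 0.0231). Nrarp, encoding a feedback inhibitor of the Notch complex, was at 8.36 and 8.77 and at 7.72 and 7.51, and its decrease of 0.95 ± 0.22 (adjusted p = 0.0445) lost its call in all 8 fits that left out an array. Myc was at 10.79 and 10.48 under DMSO and 9.49 and 8.57 under GSI. Its arrays did not overlap, and its change of -1.61 ± 0.57 did not pass in limma (adjusted p = 0.149). Over the 8 fits with an array left out the change ran from -2.07 to -1.15. The test used a spread shared with IkL/L cells, where Myc was at 8.09 and 6.14 under GSI. Not passing thus does not show that Myc was unchanged in WT cells. Cdkn1a, the gene of the CDK inhibitor p21, was the target that rose, and went from 9.54 and 9.62 to 11.26 and 11.17 (1.64 ± 0.15, adjusted p = 0.0044). Of the 6 targets that fell, 2 (Dtx1 and Il2ra) passed without WT DMSO replicate 1, and 3 passed without WT DMSO replicate 2, WT GSI replicate 2 or either IkL/L DMSO array.

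**Figure D2:**
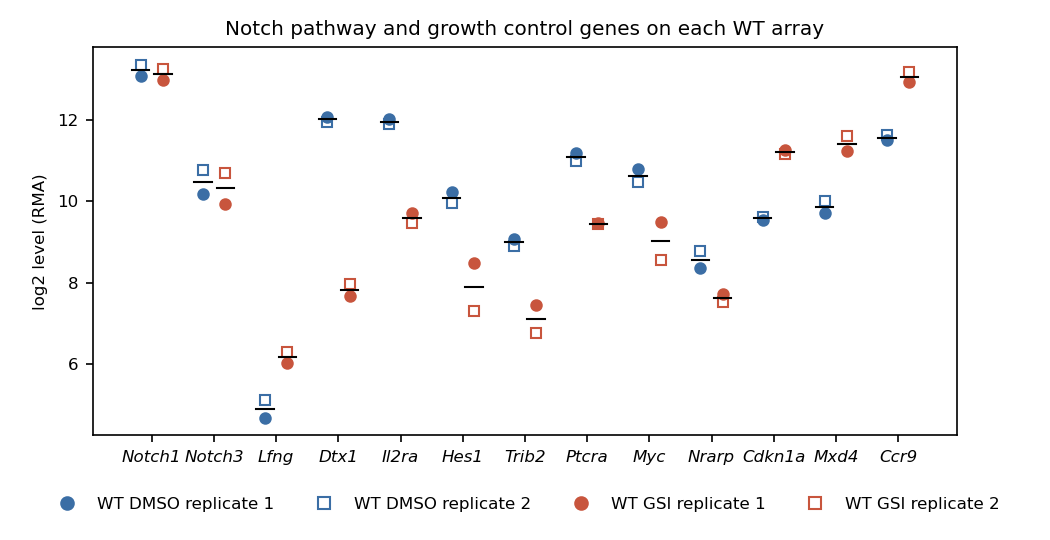
Log2 level (vertical axis) of 13 genes of the Notch pathway and growth control on each of the 4 WT arrays, with DMSO in blue and GSI in red, replicate 1 filled and replicate 2 open, and the group mean as a bar. Dtx1, Il2ra and Ptcra have close replicates and wide gaps between treatments, Hes1 and Myc have spread replicates under GSI, and Notch1 and Notch3 overlap.

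Among 12 genes of the MYC and MAX network, Mxd4 rose and no other passed (median -0.01). Mxd4, encoding a MAX partner that opposes MYC on DNA, was at 9.72 and 10.01 under DMSO and 11.23 and 11.60 under GSI (1.55 ± 0.19, limma, adjusted p = 0.00927). Its call was lost without WT DMSO replicate 1.

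Genes that make ribosomes fell together. Of 34 genes of ribosome biogenesis 21 fell and none rose, with a median log2 change of -1.21. All 34 changes were below 0, and for 33 of them both GSI arrays were below both DMSO arrays, against 19.8% of all genes. Nolc1, encoding a nucleolar chaperone of small nucleolar ribonucleoproteins, was at 11.08 and 10.69 under DMSO and 9.16 and 8.43 under GSI. It fell by 2.09 ± 0.30 (limma, adjusted p = 0.012). Polr1b, encoding a large subunit of RNA polymerase I, fell from 8.52 and 7.81 to 6.6 and 5.66 (-2.04 ± 0.38, adjusted p = 0.0231). The nucleolar helicase gene Ddx21 fell from 10.30 and 10.08 to 8.54 and 8.16 (-1.84 ± 0.28), and Gnl3, encoding nucleostemin, from 11.45 and 11.10 to 9.48 and 9.80 (-1.64 ± 0.20). By contrast, none of the 12 cytosolic ribosomal protein genes passed and their median was -0.03, with Rps6 at -0.52 ± 0.23 and Rps27 at 0.49 ± 0.17. The biogenesis genes were also higher in replicate 1 than in replicate 2 of WT DMSO, 33 of 34 of them, by a median of 0.46. In WT GSI 29 of the 34 were, by a median of 0.40. The 21 calls became 28 with a block by replicate number and 31 with the stromal level as a covariate. Leaving out WT DMSO replicate 1 left none of these calls, WT DMSO replicate 2 left 10, WT GSI replicate 2 left 11 and IkL/L DMSO replicate 1 left 13, and 17 passed when the GAPDH difference was held as a covariate.

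The MYC and MAX proteins are known to bind the letters CACGTG, an E-box, and RBPJ to bind GTGGGAA. The 250 bases upstream of each gene start (RefSeq, build GRCm38.p6) were searched on both strands for these letters. At least 1 promoter was listed for 625 of the 756 genes that fell, 339 of the 421 that rose and 14452 of all genes tested. CACGTG was present for 10.7% of the genes that fell, 10.0% of those that rose and 8.73% of all. GTGGGAA was present for 6.24%, 8.55% and 6.44%. The shares of the changed genes therefore lay near those of all genes. Over 7 gene lists, with 17 to 32 genes that had a promoter, the share with CACGTG ran from 5.88% (1 of 17 Notch targets) to 26.3% (5 of 19 FOXO and quiescence genes). The share with GTGGGAA ran from 0 of 18 nuclear transport genes to 22.2% (6 of 27 genes of the mitochondrial ribosome and import), and was 5.88% for Notch targets. The upstream windows of 3 changed genes, chosen after their matches and values were seen, show what such matches look like, with the matching letters in capitals. Ldha encodes lactate dehydrogenase A, and the more upstream of its 2 listed windows is at chr7:46845554-46845803 on the plus strand. The matches there start 145 and 48 bases before the gene start. The other listed window of Ldha held no match. Nop2 encodes a nucleolar RNA methyltransferase, and its window is at chr6:125131633-125131882 on the plus strand, with a match 60 bases before the start. Lfng is shown because its E-box letters, at 112 bases, overlap those of RBPJ, at 109 bases, in a window at chr5:140607091-140607340 on the plus strand.
Ldha: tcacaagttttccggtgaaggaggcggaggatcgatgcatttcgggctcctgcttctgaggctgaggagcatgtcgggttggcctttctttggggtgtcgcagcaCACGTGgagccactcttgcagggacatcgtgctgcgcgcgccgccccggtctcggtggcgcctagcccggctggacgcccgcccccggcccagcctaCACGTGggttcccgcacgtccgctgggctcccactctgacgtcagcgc
Nop2: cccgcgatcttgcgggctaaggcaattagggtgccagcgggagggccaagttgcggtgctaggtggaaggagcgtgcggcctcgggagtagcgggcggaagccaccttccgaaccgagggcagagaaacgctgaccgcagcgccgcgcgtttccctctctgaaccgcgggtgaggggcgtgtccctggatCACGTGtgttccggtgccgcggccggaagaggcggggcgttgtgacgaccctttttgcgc
Lfng: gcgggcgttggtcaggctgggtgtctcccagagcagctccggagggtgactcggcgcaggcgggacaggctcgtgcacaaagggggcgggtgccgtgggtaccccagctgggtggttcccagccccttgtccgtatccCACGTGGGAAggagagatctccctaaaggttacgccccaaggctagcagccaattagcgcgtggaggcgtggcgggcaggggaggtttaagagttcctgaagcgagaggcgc
Ldha and Nop2 fell and Lfng rose, and these directions were known when the 3 genes were chosen. Ldha was at a log2 level of 12.58 and 12.57 under DMSO and 11.51 and 10.55 under GSI (-1.54 ± 0.26, limma, adjusted p = 0.0176). Nop2 was at 9.30 and 8.77 and at 7.80 and 7.67 (-1.30 ± 0.22, adjusted p = 0.0189). Ldha lost its call without either WT DMSO array, Nop2 without WT DMSO replicate 1 or WT GSI replicate 2, and Lfng without WT DMSO replicate 1. A match is a description of the letters, not a binding site.

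Genes of nucleotide synthesis and of the folate cycle that feeds it fell in a similar proportion. Of 27 such genes 16 fell and none rose (median -1.30), against 4.16% and 2.31% of all genes tested. Cad, encoding the enzyme of the first steps of pyrimidine synthesis, was at 9.69 and 9.82 under DMSO and 7.64 and 7.84 under GSI (-2.01 ± 0.27, limma, adjusted p = 0.00974). Shmt2, encoding the mitochondrial enzyme that moves a carbon unit from serine to folate, fell from 11.10 and 10.65 to 9.14 and 8.60 (-2.0 ± 0.26). Mthfd1, of the cytosolic folate cycle, fell from 11.53 and 11.13 to 9.62 and 9.38 (-1.83 ± 0.21). Ctps, which encodes CTP synthase, fell from 11.47 and 11.05 to 9.62 and 9.31 (-1.80 ± 0.25). On each of these enzyme genes both treated arrays lay below both untreated ones. The serine synthesis gene Psat1 also fell (-1.57 ± 0.24), and it was the only one of 18 genes of the ATF4 stress response to pass, with Ddit3, encoding CHOP, at 1.02 ± 0.31 (adjusted p = 0.0997). Of 7 polyamine genes Srm and Azin1 fell (list median 0.11). None of the nucleotide list passed without WT DMSO replicate 1 and 9 without WT DMSO replicate 2.

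Of 21 genes of the nuclear pore and of transport through it, 16 fell and none rose (median -1.05), against 4.16% and 2.31% of all genes. Ipo5, encoding an importin that carries ribosomal proteins into the nucleus, was at 11.39 and 11.51 under DMSO and 9.75 and 9.0 under GSI (-2.07 ± 0.31, limma, adjusted p = 0.0132). Ranbp1 and Rcc1, which control the GTPase Ran, fell from 11.59 and 11.19 to 9.85 and 9.45 (-1.74 ± 0.21) and from 9.32 and 9.14 to 7.77 and 7.29 (-1.70 ± 0.22). Nup93, encoding a scaffold nucleoporin, fell from 9.89 and 9.52 to 8.40 and 7.94 (-1.54 ± 0.25). None of the list passed without WT DMSO replicate 1 and 4 without WT DMSO replicate 2.

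Mitochondrial genes fell in part. Of 29 genes of the mitochondrial ribosome and protein import 10 fell (median -0.81), against 4.16% of all genes tested. Timm8a1 and Timm9, encoding small chaperones between the mitochondrial membranes, fell from 11.01 and 10.63 to 9.29 and 8.72 and from 8.11 and 7.50 to 6.43 and 5.79. Their log2 changes were -1.81 ± 0.25 (limma, adjusted p = 0.0105) and -1.70 ± 0.27. Hspd1, encoding the chaperonin HSP60, fell from 12.89 and 12.71 to 11.47 and 10.91 (-1.61 ± 0.23). Tomm40, encoding the import channel of the outer membrane, fell by 1.25 ± 0.25. Of 23 genes of the citric acid cycle and respiratory chain 5 fell (median -0.35), led by Idh3a (-1.54 ± 0.23) and Cycs, encoding cytochrome c (-1.03 ± 0.15). Neither list had a call without WT DMSO replicate 1, and without WT DMSO replicate 2 there were 2 import and 1 respiratory genes. Without WT GSI replicate 2 or either IkL/L DMSO array, 4 import and 3 respiratory genes fell.

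Of 19 glycolysis genes 6 fell and none rose (median -0.64). Beside Hk2 and Ldha, these included Tpi1, encoding triosephosphate isomerase, at 12.19 and 11.31 under DMSO and 10.51 and 9.53 under GSI (-1.73 ± 0.37, limma, adjusted p = 0.0324). Pgam1, encoding phosphoglycerate mutase, fell from 10.95 and 10.34 to 9.40 and 8.44 (-1.73 ± 0.35). Both genes were lower in replicate 2 of each group, and each passed in 1 of the 8 fits with an array left out. Of 13 amino acid transporter genes 5 fell (median -0.35). They included Slc7a5, encoding the large neutral amino acid carrier LAT1, at 8.68 and 8.22 against 6.87 and 6.61 (-1.71 ± 0.23), and Slc7a1, encoding the arginine carrier CAT1, at 11.39 and 11.51 against 10.04 and 10.14 (-1.36 ± 0.13). In the 22 genes of cholesterol and fatty acid synthesis directions were mixed (median -0.25), as Scd1, Idi1 (-1.16 ± 0.18) and Fasn (-1.13 ± 0.20) fell and Dhcr7, of the last step to cholesterol, rose (1.14 ± 0.18). No member of these lists passed once WT DMSO replicate 1 was left out. Leaving out WT DMSO replicate 2 instead, there were 2 glycolysis and 2 transporter genes and no lipid gene, and without WT GSI replicate 2 or either IkL/L DMSO array 3 glycolysis and 2 transporter genes. Without either IkL/L GSI array 2 transporter genes passed, and without WT GSI replicate 1 there were 6 lipid genes that fell.

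Every call among genes of protein synthesis and turnover was a decrease, and most of their members did not pass. Among 18 translation factor genes 4 fell (median -0.69), among 19 aminoacyl-tRNA synthetase genes 3 (median -0.67), among 19 chaperone genes 7 (median -0.49) and among 21 proteasome genes 5 (median -0.58), and none rose. Eef1e1, encoding a scaffold of the synthetase complex, was at 10.71 and 10.25 under DMSO and 9.15 and 8.40 under GSI (-1.71 ± 0.29, limma, adjusted p = 0.0189). Gars, encoding glycyl-tRNA synthetase, fell by 1.23 ± 0.24. Hsph1, encoding a large HSP70-type chaperone, fell from 11.80 and 11.49 to 10.11 and 10.00 (-1.59 ± 0.21), and the chaperonin subunit gene Cct6a from 12.51 and 12.50 to 11.54 and 11.33 (-1.07 ± 0.13). Psme3, encoding a proteasome activator, fell by 1.29 ± 0.29. In WT DMSO these lists were also higher in replicate 1 than in replicate 2. The median log2 gap was 0.27 for translation factors, 0.52 for synthetases, 0.20 for chaperones and 0.31 for proteasome genes. It was 0.33 for the mitochondrial ribosome and import, 0.17 for the citric acid cycle and respiratory chain, and 0.28 for glycolysis. Holding the GAPDH difference as a covariate, 1 proteasome and 4 chaperone genes fell. None of these genes passed without WT DMSO replicate 1, and without each other array in turn 0 to 8 translation, 0 to 7 synthetase, 2 to 11 chaperone and 0 to 9 proteasome genes did, in each case fewest without WT DMSO replicate 2 and most without WT GSI replicate 1.

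**Figure D3:**
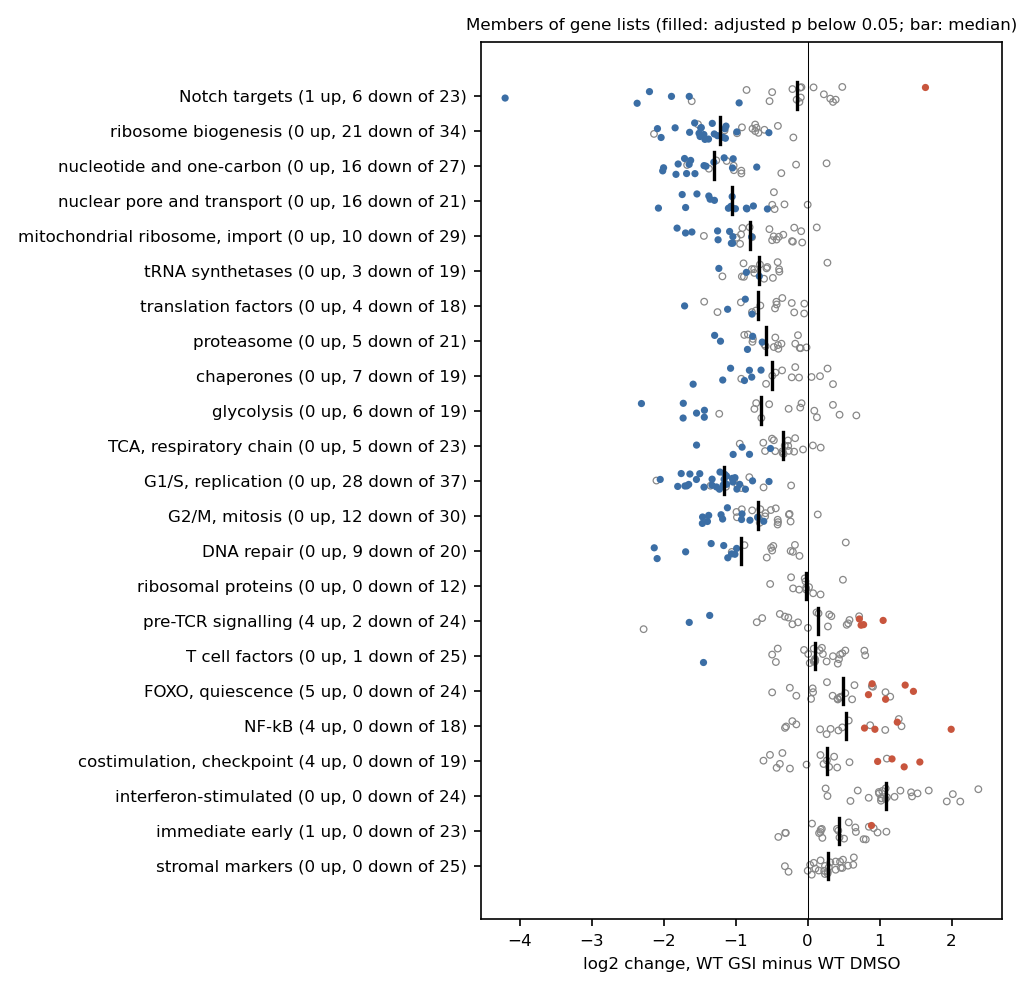
Log2 change with GSI in WT cells (horizontal axis) of every measured member of 23 gene lists, 1 point per gene, filled blue where it fell, filled red where it rose and open where it did not pass, with the list's median as a bar. Lists of growth, nucleotide synthesis, nuclear transport and replication lie left of 0, ribosomal proteins lie around 0, and all 24 interferon-stimulated genes lie right of 0 without a call.

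Genes of DNA replication were among those that fell most often. Of 37 genes of the G1/S transition and replication 28 fell and none rose (median -1.16), against 4.16% and 2.31% of all genes tested. For 36 both GSI arrays were below both DMSO arrays, against 19.8% of all genes. Cdc6, which loads the replicative helicase, was at 10.64 and 11.05 under DMSO and 8.41 and 9.18 under GSI (-2.05 ± 0.29, limma, adjusted p = 0.012). Cdc45, a part of the active helicase, fell from 9.43 and 9.25 to 7.79 and 7.39 (-1.76 ± 0.22), and Mcm3, of its ring, from 11.76 and 11.41 to 10.20 and 9.57 (-1.71 ± 0.24). Pola1, encoding the catalytic subunit of the priming polymerase, fell by 1.81 ± 0.43 (adjusted p = 0.0488). These genes, unlike those of ribosome biogenesis, did not lie higher in 1 replicate of WT DMSO, with 17 of 37 higher in replicate 1. Of 30 G2/M and mitosis genes 12 fell (median -0.69), against the same 4.16% of all genes. Cdk1, the kinase of mitotic entry, fell from 10.69 and 10.38 to 9.38 and 8.94 (-1.37 ± 0.20), and Aurkb, encoding the kinase Aurora B, from 10.17 and 10.01 to 8.89 and 8.36 (-1.46 ± 0.22). Of 20 DNA repair genes 9 fell (median -0.93), such as the exonuclease gene Exo1, from 8.93 and 9.31 to 6.58 and 7.40 (-2.13 ± 0.33), and the checkpoint kinase gene Chek1, from 10.67 and 10.65 to 8.71 and 9.22 (-1.70 ± 0.21). None of these lists had a call without WT DMSO replicate 1, and without WT DMSO replicate 2 there were 10 replication, 1 mitosis and 2 repair genes. Without each IkL/L DMSO array there were 16 and 17 replication, 5 mitosis and 4 repair genes, and without WT GSI replicate 2 there were 7 mitosis genes.

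Of 24 genes of cyclins, their kinases and their inhibitors, Cdkn1a rose, and E2f3 (-1.31 ± 0.31), Cdk2 (-1.20 ± 0.26) and Rbl1, encoding the pocket protein p107 (-1.04 ± 0.20), fell (list median 0.14). Among all genes tested 2.31% rose and 4.16% fell. All 3 decreases lost their call without each of the 4 DMSO arrays in turn. That of E2f3 was also lost without each of the GSI arrays. Of the 20 p53 targets Cdkn1a alone passed, while Aen, encoding a nuclease induced by p53, was at -1.12 ± 0.35 (limma, adjusted p = 0.111). In the BCL2 family and its partners (21 genes, median 0.09), Bmf, encoding a killer protein of the BH3-only kind, rose from 9.38 and 9.26 to 10.63 and 10.52 (1.25 ± 0.18, adjusted p = 0.0124). Mcl1, encoding a protein that opposes cell death, also rose, from 11.68 and 11.84 to 12.51 and 12.64 (0.81 ± 0.11). Bid, another BH3-only gene, fell from 9.06 and 8.37 to 7.29 and 6.43 (-1.85 ± 0.37), so genes with opposite roles moved on both sides. None of the family passed once WT DMSO replicate 1 was left out. Mcl1 alone did without WT DMSO replicate 2, and Bid also lost its call without WT GSI replicate 2 or either IkL/L DMSO array.

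Among genes linked to quiescence and FOXO factors, those that passed were higher. FOXO proteins are held out of the nucleus when PI3K and AKT are active and act on genes of rest and metabolism when they are not. Of 24 such genes 5 rose and none fell (median 0.49, with 21 changes above 0). Ypel3, linked to growth arrest, was at 9.30 and 9.26 under DMSO and 10.76 and 10.74 under GSI (1.47 ± 0.17, limma, adjusted p = 0.00847). Selenop, encoding a selenium carrier, rose from 10.41 and 10.34 to 11.86 and 11.60 (1.36 ± 0.16). The repressor gene Bcl6 rose from 8.61 and 8.97 to 9.70 and 10.04 (1.08 ± 0.20), Foxo3 by 0.90 ± 0.21 and Pik3ip1, encoding an inhibitor of PI3K, by 0.85 ± 0.17. Pik3ip1 was also the single gene of 20 of the PI3K, AKT and mTOR pathway that passed (median 0.39). Leaving out WT DMSO replicate 1 left none of these calls, WT DMSO replicate 2 or either IkL/L DMSO array left 2 and either IkL/L GSI array left 3, and 9 passed when the GAPDH difference was held as a covariate.

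Of 18 NF-kB genes 4 rose and none fell (median 0.53). Beside Ltb, these were Icam1, encoding an adhesion ligand, from 7.94 and 7.83 to 9.35 and 8.90 (1.25 ± 0.24, limma, adjusted p = 0.0252), and the inhibitor genes Nfkbie, from 10.52 and 10.68 to 11.53 and 11.54 (0.94 ± 0.15), and Nfkbia, from 12.44 and 12.33 to 13.23 and 13.12 (0.79 ± 0.13). Among 19 genes of costimulatory and checkpoint receptors 4 rose (median 0.27). Cd200, encoding an inhibitory ligand, rose from 5.43 and 5.83 to 7.03 and 7.35 (1.56 ± 0.22), and Ctla4, encoding an inhibitory receptor, from 9.89 and 9.41 to 11.22 and 10.76 (1.34 ± 0.27). Cd96 rose by 1.17 ± 0.25 and the costimulator gene Icos by 0.97 ± 0.18. Neither list had a call without WT DMSO replicate 1. When WT DMSO replicate 2 was left out, no NF-kB gene and 1 receptor gene passed, and 1 of each list without both WT arrays numbered 1. The receptor count was 1 without either IkL/L DMSO array and 2 without WT GSI replicate 1.

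Genes of T cell identity gave calls in both directions. Of 24 genes of pre-T cell receptor signalling 4 rose and 2 fell (median 0.14). Beside Ptcra, the surface receptor gene Cd6 fell from 7.73 and 7.31 to 6.32 and 6.0 (-1.36 ± 0.29, limma, adjusted p = 0.0315). Tec, encoding a tyrosine kinase, rose by 1.05 ± 0.25, Cd247, encoding the CD3 zeta chain, by 0.78 ± 0.18 and Themis, encoding a signalling adaptor of thymocytes, from 10.72 and 10.95 to 11.57 and 11.54 (0.72 ± 0.14). The fourth was Plcg1 (0.74 ± 0.17), a gene named after its value was seen. Of 25 T cell transcription factor genes Ikzf3, encoding the Ikaros relative Aiolos, fell (-1.45 ± 0.33, adjusted p = 0.0399) and no other passed. Its relative Ikzf2, encoding Helios, was at 0.80 ± 0.28. Gata3 was at 0.48 ± 0.18 (adjusted p = 0.163) and Ikzf1, encoding Ikaros, at 11.95 and 12.17 under DMSO and 12.18 and 11.95 under GSI. Of 10 V(D)J recombination genes Xrcc5 (-1.17 ± 0.26) and Hmgb2 (-0.77 ± 0.12) fell, both of which also serve outside recombination. Xrcc5 passed in 1 of the 8 fits with an array left out, and Hmgb2 lost its call without either WT DMSO array. When any of the DMSO arrays was left out, none of the 4 signalling genes that rose passed, 1 did without either IkL/L GSI array and 2 without either WT GSI array. Ikzf3 passed in 2 of the 8 fits with an array left out.

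Ccr9, encoding the receptor for the thymic chemokine CCL25, was at 11.52 and 11.63 under DMSO and 12.94 and 13.20 under GSI and rose by 1.5 ± 0.13 (limma, adjusted p = 0.00367). It was the 1 of 21 chemokine and trafficking genes that passed, where 6.47% of all genes did. Its call was lost without WT DMSO replicate 1. Among 25 lymphoid cytokine receptor and feedback genes Il2ra fell and Ifnar1, encoding a chain of the type I interferon receptor, rose (1.08 ± 0.21), a call kept in 2 of the 8 fits with an array left out. Of 15 genes of later thymocytes Themis alone passed (median 0.14), and Cd69 was at 9.27 and 7.35 under DMSO and 10.83 and 7.34 under GSI, with the spread between replicates larger than the difference between treatments.

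Of 27 genes of Polycomb and NuRD chromatin complexes 5 fell and 2 rose (median -0.14), against 4.16% and 2.31% of all genes tested. Mta3, encoding a NuRD subunit, rose from 10.74 and 10.48 to 12.05 and 11.85 (1.34 ± 0.23, limma, adjusted p = 0.0192), and Jarid2, encoding a Polycomb partner, by 0.97 ± 0.24 (adjusted p = 0.0499). The deacetylase gene Hdac2 (-0.84 ± 0.18) and the Polycomb gene Bmi1 (-0.75 ± 0.15) fell. Of 9 DNA methylation genes 2 fell (median -0.38), Hells, encoding a chromatin remodeller, from 11.12 and 10.98 to 8.87 and 9.52 (-1.86 ± 0.24), and Uhrf1, encoding a factor that brings DNMT1 to newly made DNA, by 1.13 ± 0.24. Hells lost its call without WT DMSO replicate 1, and Uhrf1 passed in 2 of the 8 fits with an array left out. No member of the chromatin complexes passed without either WT DMSO array, none of the 5 that fell passed without either IkL/L DMSO array, and 1 did without either WT GSI array.

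Markers of other lineages were called about as often as all genes. Over 8 such lists (106 genes) 4 rose (3.77%) and 2 fell (1.89%), against 2.31% and 4.16% of all genes tested. The mast cell and basophil list, in which 1 of 11 genes (Cpa3) rose, was described above and is not among the 8. Nor are the lists of stromal cells and later thymocytes. Of 13 B lineage genes Vpreb1, encoding part of the surrogate light chain, rose from 6.57 and 6.69 to 7.84 and 8.29 (1.43 ± 0.25, limma, adjusted p = 0.0195), and Pou2af1 fell. The defining B cell genes Pax5 and Ebf1 did not pass (0.16 and 0.17). Of 18 myeloid genes S100a8 rose from 5.30 and 4.57 to 6.26 and 6.54 (1.47 ± 0.26) and Lyz1, whose near-copy Lyz2 could share its signal, from 7.59 and 6.98 to 8.82 and 8.49 (1.37 ± 0.27). Of 16 natural killer and innate lymphoid genes Rora rose (1.08 ± 0.15). Of 6 erythroid genes Tfrc, encoding the transferrin receptor that dividing cells also use, fell from 12.63 and 12.53 to 11.34 and 11.16 (-1.33 ± 0.17), while the haemoglobin gene Hba-a1 was between 3.99 and 4.35. No call was made among 21 progenitor, 13 dendritic, 11 gamma-delta T and 10 endothelial cell genes, with list medians of 0.18, 0.06, 0.18 and 0.14. The largest changes there were in Nfe2 (1.5 ± 0.37, adjusted p = 0.0526) and Cd93 (1.11 ± 0.27, adjusted p = 0.0533) among progenitor genes. Apart from that of Pou2af1 these calls were lost without WT DMSO replicate 1, and Tfrc kept its call without WT DMSO replicate 2 while those of Vpreb1, S100a8, Lyz1 and Rora were lost.

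The lists on which the WT replicates stood apart gave almost no calls. All 24 interferon-stimulated genes had a change above 0 (median 1.08) and none passed. Their mean level was 9.09 and 7.49 in WT DMSO and 10.24 and 8.76 in WT GSI. In IkL/L cells it was 8.14 and 7.19 under DMSO and 9.31 and 8.55 under GSI. The mean was thus higher with GSI at each replicate number, though the labels do not say that the numbers pair samples. For 9 of them both GSI arrays lay above both DMSO arrays, against 24.2% of all genes. Ifit1, encoding an antiviral protein that binds foreign RNA, was at 9.90 and 6.86 under DMSO and 11.67 and 9.84 under GSI (2.37 ± 1.02, limma, adjusted p = 0.232), so 1 untreated array lay slightly above 1 treated array. Of 23 immediate early genes (median 0.44) 1 rose. This was Spry2 (0.88 ± 0.19), named after its value was seen, while Jund was at 1.09 ± 0.27 (adjusted p = 0.0557) and Fos at 0.67 ± 1.93. When the GAPDH difference was held as a covariate, 14 of the immediate early genes rose, and without WT GSI replicate 2 there were 4. None of the 25 stromal markers passed (median 0.28). Their mean level was 7.18 and 6.30 in WT DMSO and 7.86 and 6.13 in WT GSI, and the treated arrays were both the highest and the lowest.

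**Figure D4:**
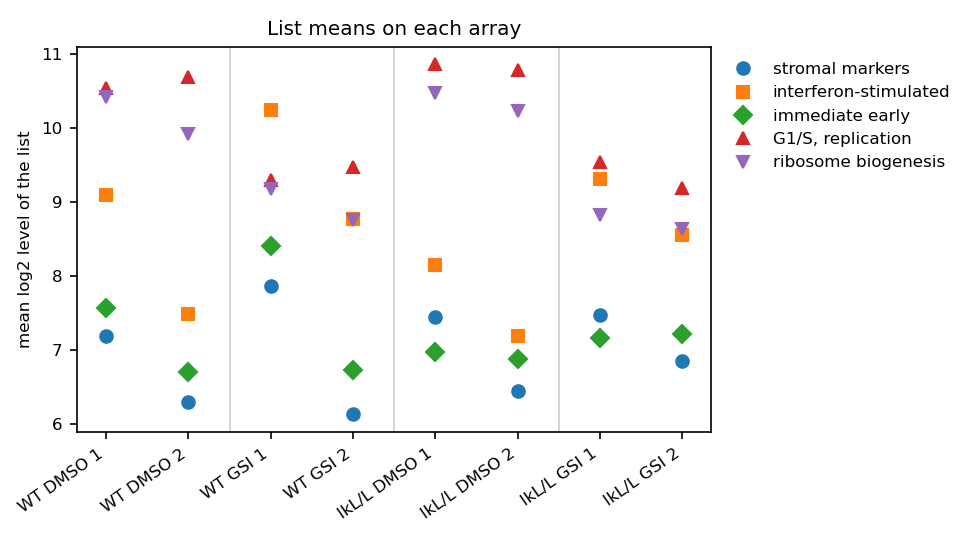
Mean log2 level (vertical axis) of 5 gene lists on each of the 8 arrays (horizontal axis). G1/S and ribosome biogenesis genes are lower on both GSI arrays of WT and of IkL/L cells, while stromal, interferon-stimulated and immediate early genes are highest on WT GSI replicate 1.

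The probe sets of a gene mostly moved together. Of the 1177 called genes 762 had a further probe set, and in 698 of these (91.6%) it moved in the same direction, against 66.6% of 8248 genes that were not called. Where the further probe set was itself above the median level the direction was shared by 491 of 500 (98.2%). Its change reached at least 0.5 of the reported one in 488 of the 762.

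The number of genes called depended on how the spread between arrays was modelled. It was 1 with the 4 WT arrays alone in the fit and 543 with neither WT array numbered 1. A covariate for the stromal level of each array gave 3054, and a covariate for the GAPDH difference gave 2276. In the last of these 60.6% of the called genes were higher, where the reported share was 35.8%, and 927 of the 1177 were called again in the same direction. The share of called genes that were higher was 19.5% without both WT arrays numbered 1, 25.2% with every probe set as a feature, 25.8% without WT GSI replicate 1 and 48.2% without WT GSI replicate 2. Among the 137 called genes followed by name, each kept its direction under every alternative. Many were chosen for large changes without overlap between the groups. For such genes leaving out an array cannot turn the direction, so the kept direction is no check of them. With the GAPDH difference held as a covariate 117 of the 137 kept their call.

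**Figure D5:**
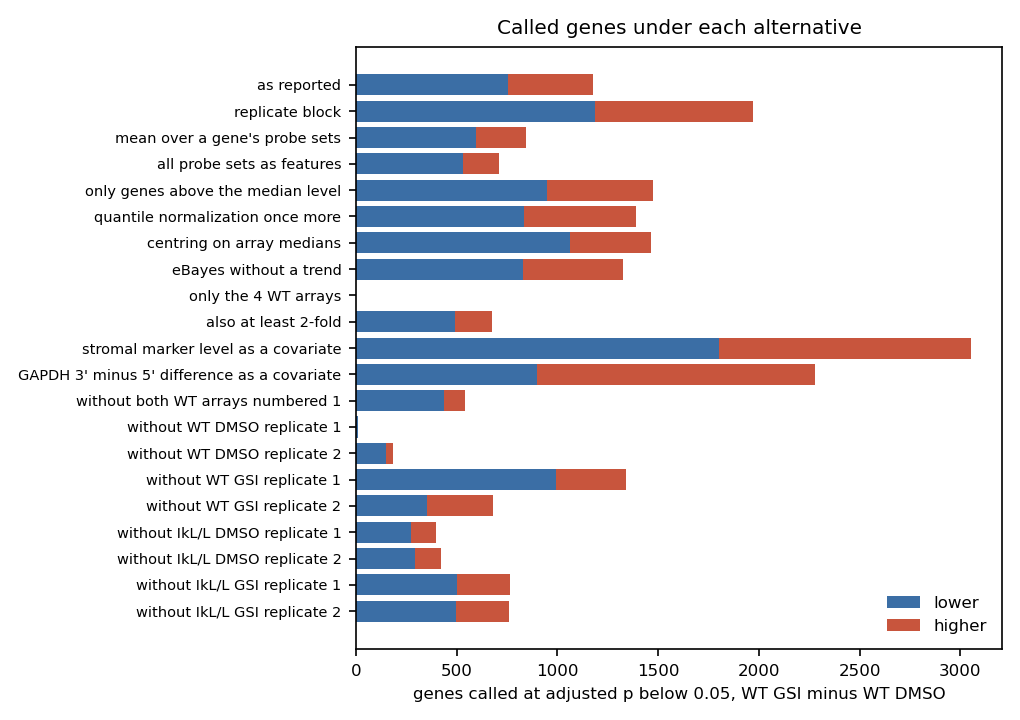
Number of genes called in WT cells (horizontal axis) as reported and under 20 alternatives, with genes lower under GSI in blue and genes higher in red. The bars run from 1 with the 4 WT arrays alone to 3054 with the stromal level as a covariate, and the bar without WT DMSO replicate 1 is close to 0.

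The same treatment in IkL/L cells, on arrays not shared with the WT comparison, called 3055 genes (16.8%), of which 1401 (7.7%) were higher and 1654 (9.09%) lower. Of the 1177 genes called in WT cells, 1168 had a change of the same sign there and 1064 were also called. These were 90.4% of the WT list and 34.8% of the IkL/L list. Both comparisons used the same estimate of spread. Dtx1 was at -4.55 in IkL/L cells against -4.20 in WT, Il2ra at -2.18 against -2.37, Cd52 at 1.53 against 2.24 and Myc at -3.53 against -1.61. The difference between the responses, tested as an interaction in limma, passed for 8 genes (0.044%), with 1089 (5.99%) at an unadjusted p below 0.05. Among the WT responders Ccr9 had a larger increase in IkL/L cells, 3.52 against 1.5, and so had Atp8b4, encoding a phospholipid flippase, 3.12 against 1.26. Myc did not pass this test. With an array left out in turn the count was lowest, at 0, when the first DMSO array of either genotype was left out and highest, at 5, when WT GSI replicate 1 was.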

How the data were processed

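RNA of sorted DN3 cells (100 ng, 50 ng or between 15 and 100 ng under 3 experiment codes, not tied to arrays in the labels) was hybridised to Affymetrix mouse arrays, 2 for each of 4 groups. The authors deposited log2 values from RMA, per the submitters' processing notes, and these were used unchanged. The RMA version is not given in the sources used here. Of 45101 probe sets, 64 controls, 932 with several gene names and 9160 with none listed were left out. Each of 9010 genes with several probe sets was read from its brightest one on average, which left 18193 genes.

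Groups came from the sample titles. The test was two-sided, by limma 3.58.1 (R 4.3.3) on all 8 arrays, with eBayes following a mean-variance trend and 4 residual and 4.11 prior degrees of freedom. Calls needed an adjusted p below 0.05 (Benjamini-Hochberg). Errors are moderated standard errors (SE), and precision is limited by the number of arrays. The members and the 50 gene lists (962 genes, 889 measured) were chosen with earlier results of these data known, so counts over a list are descriptions. Genes named were the 15 largest called increases and 15 largest decreases without overlap between groups, up to 4 called members of each list or else its 2 largest changes, genes kept without each array, genes called in the interaction, the largest replicate gaps among list genes, and a fixed set (Dtx1, Hes1, Nrarp, Ptcra, Il2ra, Myc, Notch1, Notch3, Cdkn1a, Ccr9, Ikzf1, Gata3, Bcl11b and Rag1). Other genes are markers or pathway members given with their values, or are marked as chosen after those were seen.

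Alternatives were a block by replicate number, other handling of probe sets, dim genes, scaling and variance, only the 4 WT arrays, a 2-fold minimum, a covariate for the stromal level or for the 3' minus 5' GAPDH difference, no WT array numbered 1, and each array left out in turn. A group left with 1 array was assumed to vary like the others. The fit was tested on simulated data of 18193 genes for GSI against DMSO in WT. It recovered 48 of 100 genes raised by a log2 value of 1 and 89 of 100 lowered by 2, with 8 false calls. The simulated spread was independent between arrays and held no shift shared by replicates, so it does not give the share of false calls in these data. Promoters came from RefSeq. Plots were drawn with matplotlib 3.10.9.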

Additional observations from a re-analysis of the deposited data

Results flagged for a closer look

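The response to GSI differed between IkL/L and WT cells for 8 genes by the interaction test in limma (adjusted p below 0.05). The difference is given as the log2 change in IkL/L cells minus that in WT cells. Ccr9, a chemokine receptor gene, had a difference of 2.02 (adjusted p = 0.0277), rising in both genotypes by 3.52 and 1.5. Atp8b4 had a difference of 1.87 (3.12 in IkL/L and 1.26 in WT cells). Rab44, encoding a large Rab GTPase, had a difference of 3.0, with 2.72 in IkL/L cells and a WT value of -0.28 that did not pass. Muc3 had a difference of 2.07 and Mctp1 of 1.67, with WT values of 0.52 and 0.12 that did not pass. Gm266 had a difference of -3.52, Exoc3l4 of -2.74 and 2810459M11Rik of -1.97. These 3 genes were low on all 4 WT arrays, at log2 levels of 3.29 and 3.29 under DMSO for Gm266, 4.27 and 3.98 for Exoc3l4, and 4.21 and 3.93 for 2810459M11Rik, so no decrease of the IkL/L size could be seen there. Without each array in turn between 0 and 5 genes passed.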

How the results depend on the processing

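The count of 1177 genes called in WT cells was 1973 with the replicate block, 711 with all probe sets as features, 1 with only the 4 WT arrays (2681 at an unadjusted p below 0.05), 674 with a 2-fold minimum, 3054 with a covariate for the stromal level, 2276 with a covariate for the GAPDH difference, and 543 without both WT arrays numbered 1. Without each of the 8 arrays in turn it lay between 9 and 1341. The count of 8 genes for the difference between the responses was 24 with the replicate block, 0 with all probe sets, 2 with genes above the median level, and between 0 and 5 without each array. Nothing in the labels says that the numbers pair samples. The differences between replicates correlated across genes at 0.71 between WT DMSO and WT GSI, at 0.58 and 0.56 between IkL/L DMSO and these, and at -0.11, 0.02 and -0.01 between IkL/L GSI and WT DMSO, WT GSI and IkL/L DMSO. The block kept all 1177 calls. The 137 named genes that were called kept their direction in every alternative run. For genes without overlap between the groups this was fixed in advance in the fits without 1 array. Reversals were found among genes that did not pass. With the GAPDH difference the change was 0.0153 for Mfng, -0.20 for Uty, 0.0495 for Eif2s3y and 0.18 for Exoc3l4. With the stromal level it was -0.0062 for Ikzf1, -0.0351 for Fos and -0.21 for Mgp, and with centring on medians -0.041 for Ikzf1. Without both WT arrays numbered 1 it was -0.0092 for Cd69, -0.22 for Ikzf1, 0.17 for 2810459M11Rik, -0.49 for Fos and -0.54 for Mgp. Over the fits without 1 array it ran from -0.47 to 1.75 for Acta2, -0.43 to 1.70 for Fstl1, -0.02 to 0.73 for Pecam1, -0.97 to 2.52 for Cd69, -0.62 to 0.22 for Eif2s3y, -0.24 to 0.0481 for Notch1, -0.54 to 0.23 for Notch3, -0.11 to 0.12 for Ikzf1, -0.24 to 0.0437 for 2810459M11Rik, -0.27 to 0.0123 for Exoc3l4, -2.56 to 3.90 for Fos, -1.66 to 3.48 for Klf4 and -1.62 to 2.18 for Mgp. The causes were not tested.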

Other observations

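The arrays of the 2 genotypes differed in sex-linked genes. Eif2s3y, a Y-linked gene, was at a log2 level between 2.98 and 3.81 on the 4 WT arrays and between 9.47 and 10.45 on the 4 IkL/L arrays. Kdm5d was between 2.91 and 3.10 and between 6.99 and 8.40, and Uty between 2.85 and 3.54 and between 6.26 and 7.85. Xist, of the inactive X chromosome, was between 12.57 and 13.02 on the WT arrays and between 11.40 and 12.05 on the IkL/L arrays. None of these 4 genes passed for GSI against DMSO in WT cells by limma, so within WT cells the comparison was between arrays that were alike in these genes. The presence of Y-linked RNA went with genotype on every array, so sex and Ikaros deficiency cannot be told apart in comparisons between the genotypes. The same limit holds for the difference between the responses.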
